A study of Mus musculus with 2 samples.

Results

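The guanylate-binding protein (GBP) genes and the immunity-related GTPase (IRG) genes are the classical interferon-gamma-induced GTPase families of the mouse. The 10 genes described here were chosen by name, 6 GBP genes (Gbp2, Gbp3, Gbp4, Gbp5, Gbp6 and Gbp7) and 4 IRG genes (Irgm1, Irgm2, Igtp and Iigp1), and all 10 were found among the 31253 genes of the count tables. Cells were dissociated from the intestine of 1 mouse per group and sequenced with droplet 3' chemistry, which counts unique molecular identifiers (UMIs), each standing for 1 captured transcript. The butyrate library came from a wild-type mouse on a diet with 1% butyrate, a fatty acid released from fibre by gut bacteria. The RA library, named for rheumatoid arthritis, came from a wild-type mouse on standard chow with collagen-induced arthritis, a joint disease raised by immunizing mice with collagen. Whether arthritis was also induced in the mouse fed butyrate is not given, nor is the age, strain or gut segment for either mouse. With 1 mouse per group there is no replicate check, no test between diets was possible, and every interval given is a 95% interval for counting error only.

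In mouse cells, interferon-gamma acts through its receptor and the kinases bound to it, and both families are transcribed within hours from promoters that carry gamma-activated sites and interferon-regulatory-factor sites. GBPs assemble on the membranes of pathogen vacuoles and on bacterial surfaces, where they break the vacuole and expose bacterial products to inflammasomes. Among the IRGs, the Irgm group (Irgm1, Irgm2 and Igtp, also called Irgm3) sits on the cell's own membranes and holds the effector GTPases in their inactive form. Iigp1, also called Irga6, is such an effector and loads onto the vacuoles of parasites such as Toxoplasma. Stromal, endothelial and epithelial cells of the gut can make these proteins as well as leukocytes.

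Because both families are read out through the same class of promoter element, the stretches before their transcription starts are shown first. RefSeq promoter windows on GRCm38.p6, running from 250 bases before to 50 after a start, were matched for 7 of the 10 genes and gave 8 windows, since Gbp3 had a pair. An interferon-stimulated response element core, searched as GAAANNGAAA on both strands, was present in 7 of these 8 windows and in 3.43% of all 32817 promoter windows of the same length. A gamma-activated site, searched as TTCNNNGAA, which reads the same on both strands, was present in 4 of the 8 windows and in 8.29% of all windows. Both motifs together were present in 4 of the 8, and in 0.451% of all. A match says only that these letters stand in the window. For the 3 genes whose upstream bases overlap no annotated exon, the 150 bases directly before the start follow, 5′ to 3′ on the plus strand, with both motifs in capitals on whichever strand they were matched. The windows lie at chr3:142530186-142530335 (Gbp7), chr11:58199406-58199555 (Igtp) and chr11:58214827-58214976 (Irgm2), the last of them inside the annotated span of Irgm2 and outside its exons.
Gbp7: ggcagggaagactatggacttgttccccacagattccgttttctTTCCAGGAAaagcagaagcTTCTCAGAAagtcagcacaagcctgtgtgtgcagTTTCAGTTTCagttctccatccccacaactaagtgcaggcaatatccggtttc
Igtp: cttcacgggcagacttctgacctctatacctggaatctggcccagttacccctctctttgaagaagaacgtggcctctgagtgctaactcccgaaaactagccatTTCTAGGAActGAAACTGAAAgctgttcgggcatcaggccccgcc
Irgm2: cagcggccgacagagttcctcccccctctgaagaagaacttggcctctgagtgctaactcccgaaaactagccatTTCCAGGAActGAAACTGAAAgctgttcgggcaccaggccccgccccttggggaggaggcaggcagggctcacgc
Igtp and Irgm2 share 103 of 120 aligned bases here (85.8%), and both hold a gamma-activated site directly before the response element. In the other matched genes the response element core reads GAAAGTGAAA in Gbp2, GAAACTGAAA and an overlapping GAAATAGAAA in Gbp3, GAAATTGAAA in Gbp5, and GAAATAGAAA with an overlapping GAAACCGAAA in Irgm1. Gbp5 also holds 2 gamma-activated sites, TTCTGGGAA and TTCTCAGAA.

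The genes sit in clusters on GRCm38. Gbp5 (ENSMUSG00000105504, chr3:142493978-142522344), Gbp7 (ENSMUSG00000040253, chr3:142530342-142550149), Gbp3 (ENSMUSG00000028268, chr3:142560026-142573209) and Gbp2 (ENSMUSG00000028270, chr3:142620602-142638008) follow each other on the plus strand of chromosome 3. Gbp4 (ENSMUSG00000079363, chr5:105115767-105139586) and Gbp6 (ENSMUSG00000104713, chr5:105270702-105293698) lie on the minus strand of chromosome 5. Igtp (ENSMUSG00000078853, chr11:58199556-58207591) and Irgm2 (ENSMUSG00000069874, chr11:58199618-58222782) overlap on the plus strand of chromosome 11, Irgm1 (ENSMUSG00000046879, chr11:48861968-48871683) lies on its minus strand, and Iigp1 (ENSMUSG00000054072) is on chromosome 18. Some members share exon bases with near copies, so their counts are uncertain to that extent: Gbp4 shares 61 bases with Gbp8 and 60 with Gbp9, Igtp and Irgm2 share 162 bases, and Gbp6 shares 1726 bases with the gene model Gm43302.

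Of 9959 butyrate and 10140 RA barcodes, 8247 butyrate and 6909 RA cells passed minimums of 500 UMIs and 250 genes and a limit of 25% on mitochondrial UMIs. Their median depth was 5141 UMIs in the butyrate library and 4712 in the RA library, and the shallowest kept cell had 2316 UMIs in butyrate and 501 in RA. Of all barcodes 15.4% in butyrate and 29.95% in RA held more than 25% mitochondrial UMIs, some of them also under the other minimums, and 19 kept barcode sequences occurred in both libraries. Cells were described over 6 marker gates: at least 1 UMI of Cdh5 (endothelial), at least 2 of Col1a2 (fibroblast), at least 1 of Cd3e (T cell), at least 10 of the C1q genes together (macrophage), at least 1 of Epcam (epithelial) and at least 1 of Cd79a (B cell). In every gate all markers of its own list, 9 genes or 7 for C1q with the gating genes left out, were higher than in every other gate in both libraries. The gates overlap, most of all the Epcam gate, where 56.2% of butyrate and 54.0% of RA cells also passed another gate. Summed levels or ratios of the 10 genes are therefore given beside those of cells that passed 1 gate only. Sub-gates, detection per cell, pathway genes and profiles across gates are given for the whole, overlapping gates.

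The GTPase genes were most abundant in endothelial and fibroblast gates and least abundant in the B cell gate, in the same order in both libraries. Levels are counts per 1000000 UMIs of the gate (CPM). The summed level of the 10 genes was 1946 CPM in butyrate (interval 1866 to 2028) and 1066 CPM in RA (1018 to 1115) in the Cdh5 gate. It was 776 CPM in butyrate and 564 CPM in RA in the Col1a2 gate, and 233 CPM in butyrate and 165 CPM in RA in the Epcam gate. In the Cd3e gate it was 334 CPM in butyrate and 284 CPM in RA, and in the C1q gate 322 CPM in butyrate and 276 CPM in RA. The intervals of these last 2 gates overlapped within each library, so their order is not resolved. The Cd79a gate held 84.1 CPM in butyrate and 81.2 CPM in RA, and its cells of no other gate 37.5 CPM in butyrate and 34.5 CPM in RA.

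**Figure D1:**
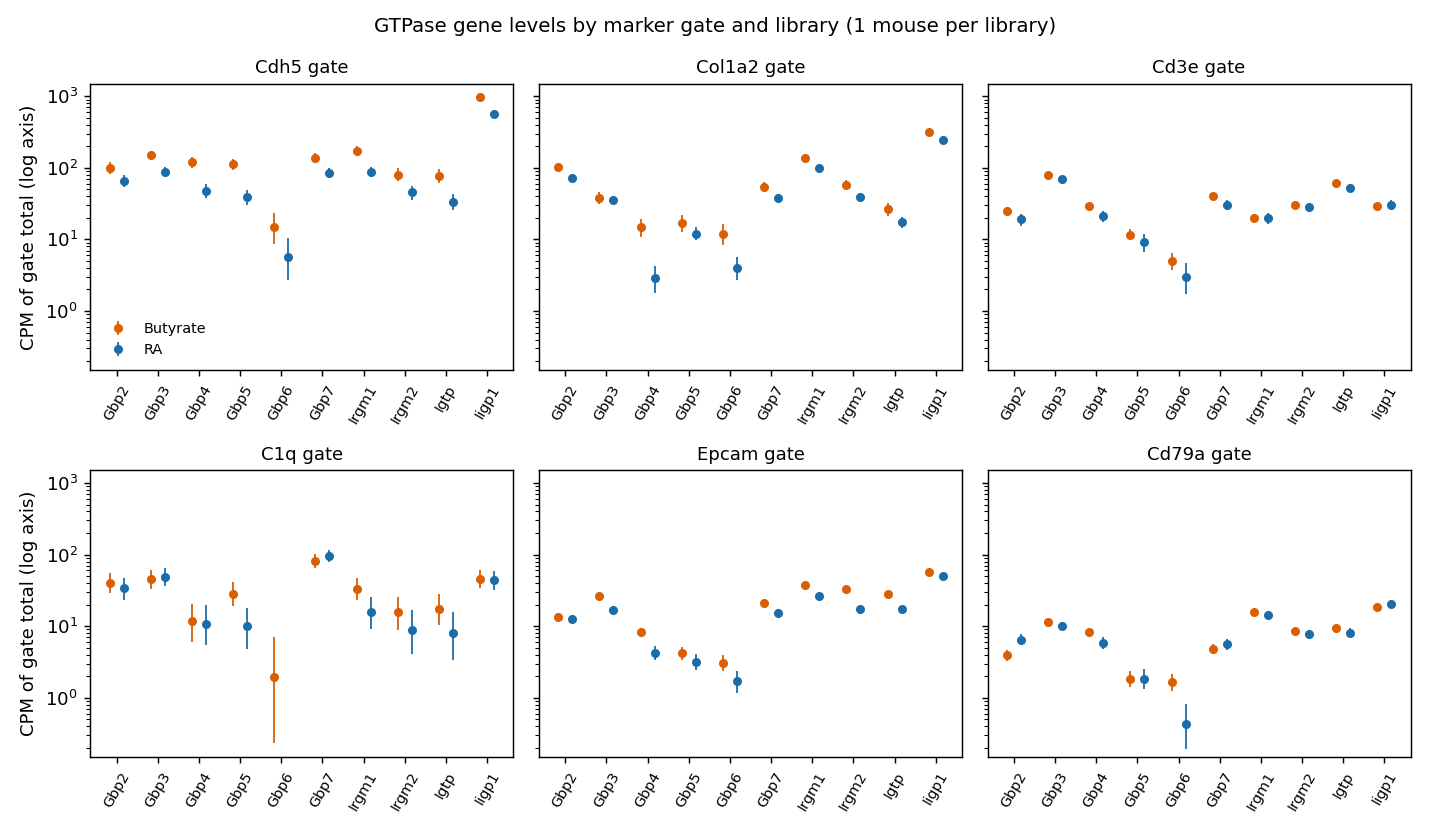
CPM of each GTPase gene (log axis) in the 6 marker gates, butyrate in orange left of RA in blue, with exact Poisson 95% intervals. Iigp1 in the Cdh5 gate, at 981 CPM in butyrate and 568 CPM in RA, is the highest point, and Gbp6 in the C1q gate had no UMI in RA and so no RA point.

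Which gene made up this level differed by cell type. Counts of a 3' library are not divided by transcript length, so each gene's share of the 10 genes' UMIs is compared for the same gene between gates. Iigp1, the vacuole-loading effector, took 50.4% of these UMIs in butyrate and 53.3% in RA in the Cdh5 gate, and 41.2% in butyrate and 43.5% in RA in the Col1a2 gate. It also had the largest share of the 10 genes in the Epcam gate, at 24.7% in butyrate and 30.2% in RA. The same held in the whole Cd79a gate, at 21.9% in butyrate and 25.5% in RA. In the Cd3e gate Iigp1 took 8.77% in butyrate and 10.8% in RA, the smallest share of the 6 whole gates in either library. In cells of 1 gate only its share was smaller among Cd79a cells, at 1.78% in butyrate (0.997% to 2.91%) and 6.94% in RA (4.76% to 9.70%), than among Cd3e cells, at 6.22% in butyrate (5.28% to 7.28%) and 8.25% in RA (6.65% to 10.1%), with overlapping intervals in RA. In the whole Cd3e gate the largest shares belonged to Gbp3, at 24.1% in butyrate and 24.8% in RA, and to the Irgm-group regulator Igtp, at 18.6% in butyrate and 18.6% in RA. In the C1q gate Gbp7, a GBP tied in mice to assembly of the phagocyte oxidase, took 25.5% in butyrate and 34.8% in RA. Gbp2, which coats Toxoplasma vacuoles, had its largest share in the C1q and Col1a2 gates, at 12.5% and 13.1% in butyrate and 12.2% and 12.6% in RA. The Irgm-group regulator Irgm1 took 16.03% to 19.0% in the Col1a2, Epcam and Cd79a gates of butyrate and 16.1% to 17.7% in those of RA. In cells of 1 gate only Iigp1 kept the largest share among Cdh5 cells, at 52.1% in butyrate and 54.4% in RA, and Gbp7 among C1q cells, at 28.8% in butyrate and 38.5% in RA.

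**Figure D2:**
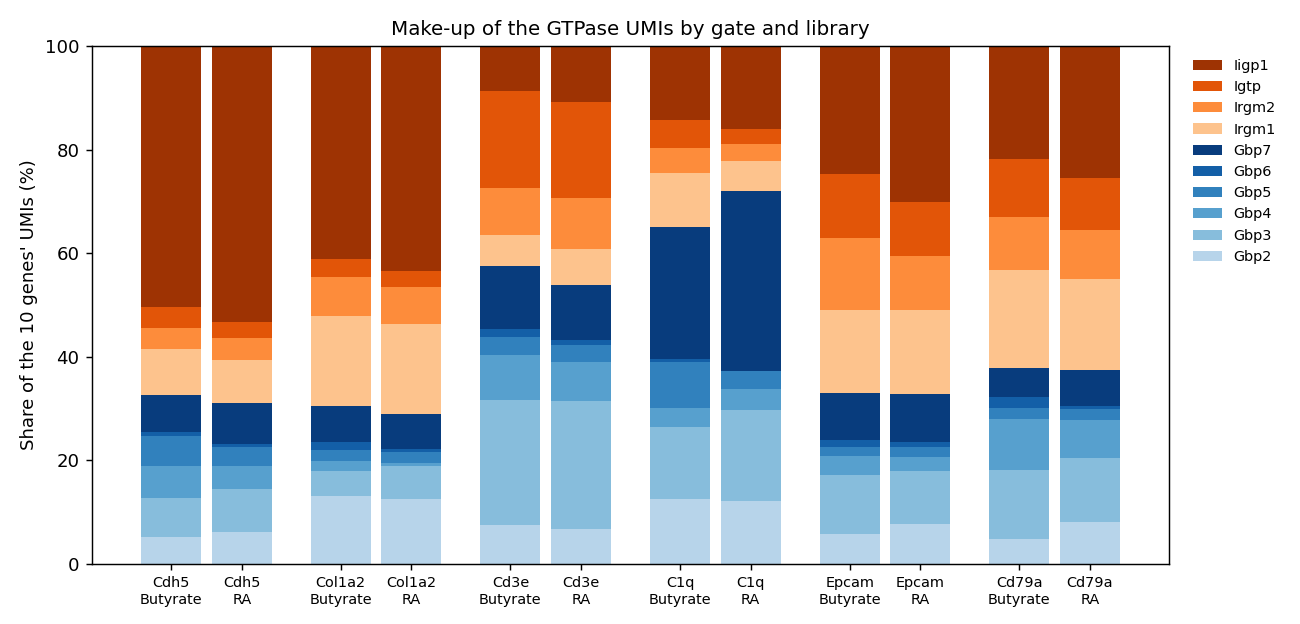
Share of the 10 genes' UMIs (%) taken by each gene, stacked, for each marker gate with butyrate left of RA; GBP genes in blue, IRG genes in orange. Iigp1 is the largest block in the Cdh5, Col1a2, Epcam and Cd79a bars, Gbp3 and Igtp in the Cd3e bars and Gbp7 in the C1q bars.

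In the endothelial gate all 10 GTPase genes were at least 1.5-fold higher in butyrate than in RA. Of all 10530 genes with at least 20 UMIs in that gate, 10.6% were at least 1.5-fold higher and 16.3% at least 1.5-fold lower. The median log2 ratio, butyrate over RA, was 0.90 for the 10 genes and -0.02 for all genes. Among the GBPs, Gbp5, which promotes NLRP3 inflammasome assembly in mouse macrophages, had 112 CPM in butyrate and 39.1 CPM in RA, a ratio of 2.85 (2.11 to 3.88). Gbp4 had 120 CPM in butyrate and 47.7 CPM in RA, a ratio of 2.51 (1.90 to 3.33). Gbp3 had 149 CPM in butyrate and 87.4 CPM in RA, Gbp7 had 138 CPM in butyrate and 84.5 CPM in RA, and Gbp2 had 99.5 CPM in butyrate and 65.8 CPM in RA, with ratios of 1.71, 1.63 and 1.51. Gbp6 rested on 17 UMIs in butyrate and 10 in RA, a ratio of 2.62 (1.13 to 6.39). Among the regulators, Irgm1 had 174 CPM in butyrate and 88.5 CPM in RA (ratio 1.96, 1.58 to 2.44), and Igtp had 77.7 CPM in butyrate and 33.5 CPM in RA (2.32, 1.65 to 3.28). Irgm2 had 80.3 CPM in butyrate and 45.4 CPM in RA, a ratio of 1.77. Iigp1 had 981 CPM in butyrate and 568 CPM in RA, a ratio of 1.73 (1.58 to 1.88). Every interval of the 10 ratios lay above 1. After each cell was thinned to 1000 UMIs, 7 genes kept 20 UMIs and 4 of them were at least 1.5-fold higher. The share over all genes was not taken after thinning, so nothing is read from this count. Gbp2 was then at 0.917, found in 9 butyrate and 10 RA cells, and Irgm2 at 0.998, found in 7 butyrate and 10 RA cells.

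In cells that passed the Cdh5 gate alone, 72 in butyrate and 132 in RA, the summed level was 2281 CPM in butyrate and 1326 CPM in RA, a ratio of 1.72 (1.59 to 1.86). There 6 of the 9 genes with at least 20 UMIs were at least 1.5-fold higher, against 10.5% of 8298 genes, and 0 that much lower, against 16.3%. Gbp5 (2.97), Gbp4 (2.301) and Irgm1 (2.25) had the highest ratios and Gbp2 (1.19) the lowest. RNA of other cell types in the whole gate differed as well: the epithelial markers summed to 296 CPM in butyrate and 1259 CPM in RA, the B cell markers to 429 CPM in butyrate and 197 CPM in RA, and all 9 markers of each list had UMIs in both libraries. Their part in the GTPase ratios was not tested. Lyve1, a lymphatic endothelial receptor, split the gate unevenly, with a UMI in 27 of 129 butyrate cells and 80 of 188 RA cells. Within cells without a Lyve1 UMI the summed level was 2256 CPM in butyrate and 1401 CPM in RA (ratio 1.61, 1.504 to 1.72), and within cells with one it was 929 CPM in butyrate and 588 CPM in RA (1.58, 1.35 to 1.85). The butyrate level was higher on both sides of the split, by smaller ratios than the 1.83 (1.72 to 1.94) of the whole gate. Without a Lyve1 UMI, Gbp2 (1.25, 0.918 to 1.70) and Gbp7 (1.37, 1.05 to 1.80) fell short of 1.5-fold. With one, Gbp3, Gbp4, Irgm1, Irgm2 and Iigp1 did, at ratios from 1.15 to 1.42. The part of the uneven split in the ratios of the whole gate was not tested. Iigp1 had 1159 CPM in butyrate and 756 CPM in RA without Lyve1, and 399 CPM in butyrate and 299.7 CPM in RA with it.

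**Figure D3:**
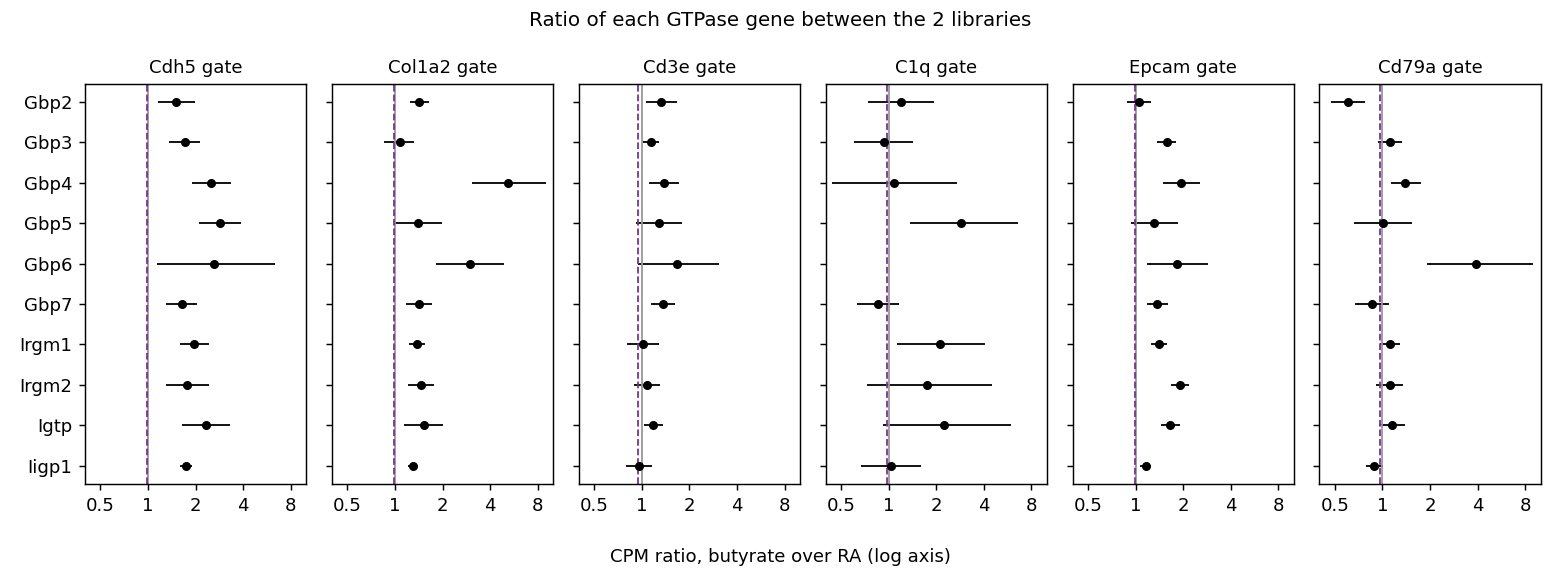
Ratio of CPM, butyrate over RA (log axis), for each GTPase gene in each gate, with exact 95% counting intervals; the purple dashed line is the median ratio of all genes with at least 20 UMIs. All points of the Cdh5 panel lie above 1, Gbp2 lies below 1 in the Cd79a panel, and Gbp6 is left out of the C1q panel, where it had 2 UMIs.

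In the fibroblast gate the GTPase genes were higher in butyrate by smaller ratios, and Gbp4 and Gbp6 stood apart. All 10 ratios were above 1 and 8 of the 10 intervals lay above 1. The median log2 ratio was 0.51, against -0.01 for all genes. A fold of at least 1.5 was reached by 3 of the 10 genes, Gbp4, Gbp6 and Igtp, where 6.25% of 13754 genes were that much higher and 11.3% that much lower. Gbp4 had 48 UMIs in 367 butyrate cells and 22 UMIs in 865 RA cells, which is 14.7 CPM in butyrate and 2.85 CPM in RA, a ratio of 5.16 (3.05 to 8.97). Gbp6 had 11.9 CPM in butyrate and 4.02 CPM in RA, a ratio of 2.97 (1.81 to 4.93). Both had few UMIs, and 70.8% of the butyrate and 72.7% of the RA UMIs of Gbp4 came from 10 cells. Gbp2 had 101.4 CPM in butyrate and 71.0 CPM in RA (ratio 1.43, 1.24 to 1.64), while Gbp3 had 37.98 CPM in butyrate and 35.5 CPM in RA (1.07, 0.858 to 1.33). Among the IRGs, Irgm1 had 135 CPM in butyrate and 97.9 CPM in RA (1.38, 1.22 to 1.55), and Iigp1 had 319 CPM in butyrate and 245 CPM in RA (1.30, 1.21 to 1.41). In cells of the Col1a2 gate alone the summed ratio was 1.47 (1.39 to 1.56), and 6 of 10 genes were at least 1.5-fold higher against 6.36% of 12278 genes, and 0 that much lower against 11.5%. Gbp2, with 128 CPM in butyrate and 76.0 CPM in RA, was then among them at a ratio of 1.69. After thinning to 1000 UMIs per cell, 7 genes kept 20 UMIs and 1 of them reached the fold, with no share over all genes taken.

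In the epithelial gate the Irgm-group regulators and several GBPs were higher in butyrate, and the difference was larger in cells that passed no other gate. All 10 ratios were above 1, 8 of the 10 intervals lay above 1, and the median log2 ratio was 0.58 against -0.02 for all genes. A fold of at least 1.5 was reached by 5 of 10 genes, where 5.74% of 16211 genes were that much higher and 13.4% that much lower. Irgm2 had 32.7 CPM in butyrate and 17.1 CPM in RA (ratio 1.90, 1.67 to 2.18), and Igtp had 28.6 CPM in butyrate and 17.2 CPM in RA (1.66, 1.45 to 1.90). Irgm1 had 37.3 CPM in butyrate and 26.5 CPM in RA (1.41, 1.26 to 1.57). Of the GBPs, Gbp4 had 8.27 CPM in butyrate and 4.27 CPM in RA (1.93, 1.48 to 2.54), and Gbp3 had 26.7 CPM in butyrate and 16.9 CPM in RA (1.58, 1.38 to 1.81). Gbp6 had a ratio of 1.82 (1.18 to 2.85), Gbp7 of 1.38 (1.19 to 1.60) and Gbp5 of 1.32 (0.943 to 1.85). Iigp1 had 57.5 CPM in butyrate and 49.7 CPM in RA (1.16, 1.06 to 1.26), and Gbp2 had 13.3 CPM in butyrate and 12.6 CPM in RA (1.05, 0.886 to 1.26).

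Fibroblast RNA in the epithelial gate summed to 391 CPM over its 9 markers in butyrate and 948 CPM in RA, and B cell RNA to 647 CPM in butyrate and 437 CPM in RA. Their part in the ratios of the whole gate was not tested. In the 916 butyrate and 779 RA cells of the Epcam gate alone, the summed level was 232 CPM in butyrate and 129 CPM in RA, a ratio of 1.80 (1.68 to 1.93). There 9 of 10 genes were at least 1.5-fold higher, against 4.45% of 13851 genes, and 0 that much lower, against 11.8%. Irgm2 had 42.4 CPM in butyrate and 17.3 CPM in RA (2.45), Irgm1 had 44.5 CPM in butyrate and 25.5 CPM in RA (1.75), and Iigp1 had 58.1 CPM in butyrate and 37.4 CPM in RA (1.55). Gbp2 had 11.5 CPM in butyrate and 5.59 CPM in RA, a ratio of 2.06. The gene short of the fold was Gbp7, at 1.35. At most 10% mitochondrial UMIs in place of 25% brought the summed ratio of the whole gate to 1.22 and its count of genes to 3, and the ratio of cells of this gate alone to 1.49. Iigp1 in the whole gate was then at 0.973. No share over all genes was taken with the 10% limit. After thinning Gbp6 was at 0.983, found in 5 butyrate and 4 RA cells.

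Both families had about the same ratio in the whole Epcam gate, 1.41 (1.34 to 1.49) for the summed IRGs and 1.42 (1.31 to 1.53) for the summed GBPs. In cells of the Epcam gate alone the ratios were 1.83 (1.69 to 1.98) for the IRGs and 1.73 (1.51 to 1.98) for the GBPs, with overlapping intervals. They lay further apart in a pair of sub-gates. Cells with at least 1 UMI of Aqp8, a water channel of surface colonocytes, numbered 699 in butyrate and 498 in RA. Their IRG genes summed to 248 CPM in butyrate and 116 CPM in RA (ratio 2.13, 1.95 to 2.33), and their GBP genes to 93.8 CPM in butyrate and 63.1 CPM in RA (1.49, 1.31 to 1.69). Irgm2 led there, with 70.7 CPM in butyrate and 25.7 CPM in RA (2.75, 2.29 to 3.31), followed by Igtp with 45.2 CPM in butyrate and 19.5 CPM in RA (2.32, 1.87 to 2.89). Cells with at least 10 UMIs of Muc2, the goblet cell mucin, numbered 134 in butyrate and 144 in RA. Their IRG genes summed to 149 CPM in butyrate and 75.7 CPM in RA (1.97, 1.67 to 2.33), and their GBP genes to 38.5 CPM in butyrate and 27.0 CPM in RA (1.43, 1.05 to 1.94). Iigp1 in these goblet-marker cells had 72.1 CPM in butyrate and 35.3 CPM in RA (2.05, 1.60 to 2.63), while Gbp2 had 4.39 CPM in butyrate and 5.18 CPM in RA. Whether the families differ in ratio was not tested.

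In the T cell gate the summed ratio was 1.18 (1.11 to 1.25), further from 1 for the GBPs than for the IRGs, a gap that was not tested. Of the 10 genes 9 had ratios above 1, 5 intervals lay above 1, and 1 gene reached 1.5-fold, where 4.4% of 13317 genes were that much higher and 16.8% that much lower. The median log2 ratio was 0.29, against -0.08 for all genes. The GBP genes summed to 192 CPM in butyrate and 153 CPM in RA (ratio 1.26, 1.16 to 1.36), and the IRG genes to 142 CPM in butyrate and 131 CPM in RA (1.08, 0.990 to 1.18). Gbp3 had 80.2 CPM in butyrate and 70.4 CPM in RA (1.14, 1.011 to 1.29), Gbp7 had 41.1 CPM in butyrate and 30.2 CPM in RA (1.36, 1.14 to 1.63), and Gbp4 had 29.1 CPM in butyrate and 21.1 CPM in RA (1.38, 1.11 to 1.71). The gene past the fold was Gbp6, with 53 UMIs in butyrate and 17 in RA (1.66, 0.947 to 3.06). Igtp had 62.1 CPM in butyrate and 52.7 CPM in RA (1.18, 1.03 to 1.36). Iigp1, with 29.3 CPM in butyrate and 30.5 CPM in RA, was the gene with a ratio below 1 (0.959, 0.795 to 1.16).

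The 306 butyrate and 153 RA T cells with a Cd8a UMI carried 301 CPM in butyrate and 302 CPM in RA of the 10 genes (ratio 0.997, 0.890 to 1.12). The family sums differed in sign there, a gap that was not tested. The GBP genes had 214 CPM in butyrate and 182 CPM in RA (1.18, 1.02 to 1.36). The IRG genes had 86.8 CPM in butyrate and 119.8 CPM in RA (0.724, 0.598 to 0.879). Single genes did not all follow: Gbp2 (1.69), Gbp3 (1.14) and Gbp5 (4.30) were higher, and Gbp4 (1.004), Gbp7 (0.985) and Gbp6 (0.733) were not. Irgm1 (0.550), Irgm2 (0.646) and Iigp1 were lower, and Igtp was at 0.975. Gbp5 rested on 47 UMIs in butyrate and 5 in RA. Cells with a Cd4 UMI, 528 in butyrate and 248 in RA, had 184 CPM of GBP genes in butyrate and 132 CPM in RA (1.39, 1.20 to 1.61), and 156 CPM of IRG genes in butyrate and 153 CPM in RA (1.02, 0.887 to 1.18). Iigp1 was lower in butyrate in both, with 34 UMIs in butyrate and 33 UMIs in RA beside Cd8a (ratio 0.472, 0.284 to 0.786), and 125 UMIs in butyrate and 93 UMIs in RA beside Cd4 (ratio 0.641, 0.486 to 0.848). Few cells carried this gene: in the whole Cd3e gate 10 cells gave 36.2% of its UMIs in butyrate and 54.3% in RA, and 3 of these 10 in butyrate and 5 in RA passed no other gate. RNA of other cell types in the whole Cd3e gate differed too. Fibroblast markers summed to 76.3 CPM in butyrate and 554 CPM in RA, and epithelial markers to 444 CPM in butyrate and 1104 CPM in RA. B cell markers were higher in butyrate, at 189 CPM against 139 CPM in RA. Their part in the Iigp1 and IRG ratios was not tested. In cells of the Cd3e gate alone Iigp1 had 20.6 CPM in butyrate and 24.4 CPM in RA, a ratio of 0.846 (0.643 to 1.12). The summed ratio of those cells was 1.12 (1.04 to 1.21), with 2 of 10 genes at least 1.5-fold higher against 4.95% of 11265 genes, and 0 that much lower against 10.4%. Gbp2 was then at 25.6 CPM in butyrate and 15.3 CPM in RA (1.67). The count of genes past the fold was 0 of 10 with a stricter gate of at least 2 Cd3e UMIs, and 4 of the 9 that kept 20 UMIs after thinning. Shares over all genes were not taken under these settings.

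The macrophage gate was small and its ratios were poorly resolved. It held 107 butyrate and 130 RA cells, with 329 GTPase UMIs in butyrate and 279 in RA. The summed ratio was 1.17 (0.992 to 1.37). Of the 9 genes with at least 20 UMIs, 7 had ratios above 1 and 4 were at least 1.5-fold higher, where 9.94% of 8236 genes were that much higher and 12.5% that much lower. The median log2 ratio was 0.25 for the 9 genes and -0.04 for all genes. Gbp5 had 29 UMIs in butyrate and 10 in RA (2.87, 1.36 to 6.60), and Irgm1 had 34 UMIs in butyrate and 16 in RA (2.10, 1.13 to 4.08). Gbp7 went the other way, with 82.3 CPM in butyrate and 96.0 CPM in RA (0.857, 0.632 to 1.16). Iigp1 was carried by few cells, since 93.6% of its UMIs in butyrate and 88.9% in RA came from 10 cells. Gbp6 had 2 UMIs in butyrate and 0 in RA. Fibroblast markers in this gate summed to 489 CPM in butyrate and 69.3 CPM in RA, and their part in the ratios was not tested. In cells of the C1q gate alone, 2 of the 6 genes with enough UMIs were at least 1.5-fold higher, against 8.26% of 6443 genes, and 0 that much lower, against 16.2%, and the summed ratio was 1.05 (0.849 to 1.29).

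In the B cell gate the summed level was alike in the libraries, with a ratio of 1.04 (0.974 to 1.10). Of the 10 genes 1 was at least 1.5-fold higher and 1 at least 1.5-fold lower, where 4.69% of 15805 genes were that much higher and 19.8% that much lower, and the median log2 ratio was 0.15 against -0.05 for all genes. Gbp6 had 54 UMIs in butyrate and 9 in RA (3.92, 1.92 to 9.02). Gbp2 had 3.95 CPM in butyrate and 6.48 CPM in RA (0.610, 0.475 to 0.782). Its ratio was 1.30 after thinning to 1000 UMIs, when it was found in 15 butyrate and 6 RA cells. Fibroblast markers in the whole gate summed to 205 CPM in butyrate and 563 CPM in RA, and epithelial markers to 570 CPM in butyrate and 1230 CPM in RA. T cell markers were higher in butyrate, at 211 CPM against 175 CPM in RA. Their part in the ratios of this gate was not tested. Gbp4 had 8.21 CPM in butyrate and 5.86 CPM in RA (1.40, 1.13 to 1.75). Irgm1, with the most UMIs of the 10 in B cells of no other gate, had 10.7 CPM in butyrate and 8.10 CPM in RA in those cells (1.32, 1.04 to 1.68). Much of the Iigp1 of the whole gate came from cells of several gates: 10 cells gave 62.1% of its UMIs in butyrate and 56.2% in RA, and all of these cells passed another gate too. In the 4068 butyrate and 2764 RA cells of the Cd79a gate alone, 2 of 10 genes were at least 1.5-fold lower, against 9.11% of 13487 genes, and 1 was at least 1.5-fold higher, against 5.41%. The lower ones were Iigp1, with 15 UMIs in butyrate and 31 in RA (0.278, 0.140 to 0.531), and Gbp2, with 17 UMIs in butyrate and 25 in RA (0.391, 0.198 to 0.753). The higher one was Gbp6, with 19 UMIs in butyrate and 3 in RA (3.64, 1.07 to 19.2). B cells with a UMI of Ighd, a mark of naive B cells, had a summed ratio of 1.11 (1.02 to 1.20).

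Over all kept cells together the 10 genes summed to 226.6 CPM in butyrate and 225.0 CPM in RA, a ratio of 1.007 (0.982 to 1.03). Iigp1 was lower in butyrate in this pool, at 56.9 CPM in butyrate and 75.4 CPM in RA (0.755, 0.720 to 0.791), although its ratio was above 1 in the Cdh5, Col1a2 and Epcam gates. In the C1q gate its ratio was not resolved from 1 (1.03, 0.672 to 1.59). The pool held different shares of cells: Col1a2-only cells were 3.33% of butyrate and 10.03% of RA cells, and Cdh5-only cells 0.873% of butyrate and 1.91% of RA cells. Col1a2-only cells supplied 13.6% of the GTPase UMIs in butyrate and 29.8% in RA, and 21.9% of the Iigp1 UMIs in butyrate and 38.8% in RA. Cd79a-only cells were 49.3% of butyrate and 40.0% of RA cells and supplied 6.29% of the GTPase UMIs in butyrate and 4.14% in RA. Gbp4, Gbp6, Igtp, Irgm2 and Gbp3 were higher in butyrate in the pool as well, with ratios of 1.70, 1.71, 1.41, 1.22 and 1.21. Gbp2 was at 16.7 CPM in butyrate and 20.3 CPM in RA (0.822, 0.752 to 0.899).

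Detection per cell was compared after each cell had been thinned to 1000 UMIs. In the Cdh5 gate 58.1% of butyrate cells (49.1% to 66.8%, exact binomial) and 47.8% of RA cells (40.4% to 55.3%) then held a UMI of any of the 10 genes. In the Col1a2 gate these were 35.4% of butyrate and 30.7% of RA cells, in the Cd3e gate 24.6% of butyrate and 21.3% of RA cells, and in the C1q gate 27.1% of butyrate and 23.0% of RA cells. The Epcam gate held 15.7% of butyrate cells (14.1% to 17.3%) and 12.04% of RA cells (10.5% to 13.7%). No gate was taken to lack these genes, so no share of pure background from free RNA is given. The lowest gate is set beside the others: in the Cd79a gate 4.56% of butyrate and 4.43% of RA cells held one. As counted, the shares were 84.5% of butyrate and 86.2% of RA cells in the Cdh5 gate at median depths of 7372 and 7320.5 UMIs, and 19.3% of butyrate and 17.8% of RA cells in the Cd79a gate at 4634 and 4234 UMIs. Iigp1 was found after thinning in 43.4% of butyrate and 31.5% of RA cells of the Cdh5 gate, and in 0.450% of butyrate and 0.710% of RA cells of the Cd79a gate. Thinning left out no butyrate cells, and between 1 and 49 RA cells in each gate.

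Cells in the endothelial gate carried several of these genes at once. Of the cells in this gate, 44.2% in butyrate and 29.8% in RA also passed another gate, and cells of 1 gate only were not counted apart. At full depth 50.4% of butyrate and 32.4% of RA cells of the Cdh5 gate held UMIs of at least 5 of the 10 genes, against 15.8% of butyrate and 8.67% of RA cells in the Col1a2 gate. The same count was reached by 5.24% of butyrate and 4.44% of RA cells in the Cd3e gate, 5.02% of butyrate and 3.36% of RA cells in the Epcam gate, and 0.783% of butyrate and 0.764% of RA cells in the Cd79a gate. In the small C1q gate it was reached by 8.41% of butyrate cells (9 cells) and 1.54% of RA cells (2 cells). After thinning, 4 or more genes were found in 6.98% of butyrate and 2.17% of RA cells of the Cdh5 gate.

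**Figure D4:**
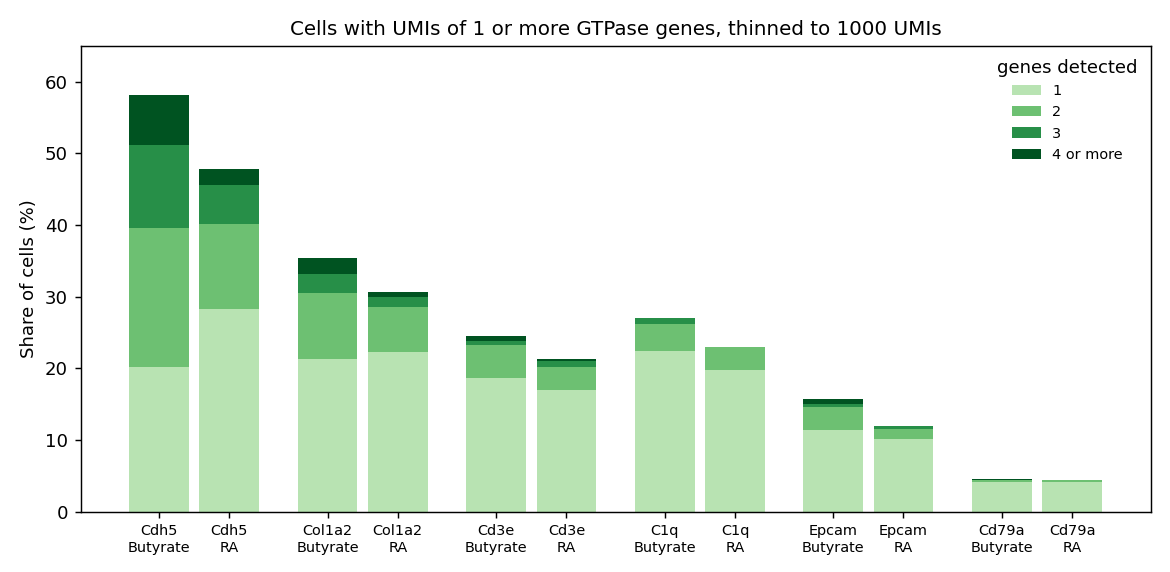
Share of cells (%) with UMIs of 1, 2, 3 and 4 or more GTPase genes after each cell was thinned to 1000 UMIs, by gate, with butyrate left of RA. The Cdh5 bars reach 58.1% in butyrate and 47.8% in RA, and the Cd79a bars 4.56% in butyrate and 4.43% in RA.

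Genes of the interferon pathway were read beside the members. Ifng, the gene of interferon-gamma, had 37.1 CPM in butyrate and 23.2 CPM in RA in the Cd3e gate (ratio 1.60, 1.31 to 1.96). It had 168 UMIs in butyrate and 26 in RA in the Epcam gate (5.80, 3.82 to 9.13), where 258 butyrate and 171 RA cells also passed the Cd3e gate. The Cd79a gate held 138 UMIs in butyrate and 22 in RA (4.09, 2.60 to 6.74), the Col1a2 gate 6 in butyrate and 5 in RA, the Cdh5 gate 8 in butyrate and 0 in RA, and the C1q gate 0 in both. Irf1, a factor that binds the response element, had 486 CPM in butyrate and 315 CPM in RA in the Cdh5 gate (1.54, 1.37 to 1.74) and 379 CPM in butyrate and 261 CPM in RA in the Col1a2 gate (1.45, 1.35 to 1.56). Its ratios in the Cd3e, C1q, Epcam and Cd79a gates were 1.13, 1.41, 1.30 and 1.09.

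Other members of the families followed in the endothelial gate. Of the other Irg genes, 4 of 4 with at least 20 UMIs were at least 1.5-fold higher there, against the 10.6% of all genes. Tgtp2 and Tgtp1, near-identical effector GTPases whose reads may be split between them, had ratios of 2.40 (1.60 to 3.65) and 2.27 (1.30 to 4.04). The related Gm4951 had 69.0 CPM in butyrate and 35.2 CPM in RA (1.96, 1.39 to 2.78). Of the other Gbp genes, Gbp8 had 41.0 CPM in butyrate and 18.2 CPM in RA (2.26, 1.41 to 3.66) and Gbp9 a ratio of 1.35. In the Epcam gate Gbp9, with 10.3 CPM in butyrate and 6.69 CPM in RA (1.53), and Gbp8 (1.25) were the other Gbp genes with enough UMIs. There 0 of 8 other Irg genes were at least 1.5-fold higher, where 5.74% of all genes were, and 0 that much lower, where 13.4% were. Tgtp2 had the highest ratio of these, 4.16 CPM in butyrate and 2.78 CPM in RA (1.49), and Irgc1 the lowest (0.807).

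Of 13 transcription factors and brakes of interferon signalling, 4 were at least 1.5-fold higher in the Epcam gate, where 5.74% of all genes were, and 3 in the Col1a2 gate, where 6.25% were. The counts were 2 in the Cdh5 gate (10.6% of all genes), 2 in the C1q gate (9.94%), 1 in the Cd3e gate (4.4%) and 0 in the Cd79a gate (4.69%), and nothing is read from counts this small. At least 1.5-fold lower were 2 in the C1q gate, where 12.5% of all genes were, and 0 in the other gates, where 11.3% to 19.8% were. In the Epcam gate they ranged from Usp18, an interferon-induced brake on the type I receptor, at 24.8 CPM in butyrate and 10.6 CPM in RA (2.34, 1.99 to 2.76), to Socs3, a brake on cytokine receptors, at 41.8 CPM in butyrate and 58.2 CPM in RA (0.719, 0.658 to 0.785). Of 9 receptors and kinases there, 1 was at least 1.5-fold higher, where 5.74% of all genes were. It was Ifnlr1, the chain specific to type III interferon, at 6.42 CPM in butyrate and 4.22 CPM in RA (1.52). Jak2 followed at 1.37 (1.29 to 1.46), and Ifnar2 had the lowest ratio of the 9 (1.011). Their median log2 ratio was 0.25, against -0.02 for all genes. In the Cdh5 gate 2 of 8 were at least 1.5-fold higher, where 10.6% of all genes were. Of the ligands besides Ifng, each of the following had at least 20 UMIs in 1 gate. Ifnb1, the gene of interferon-beta, had 63 UMIs in butyrate and 26 in RA in the C1q gate (2.40, 1.496 to 3.95), and Ifnk had 9 UMIs in butyrate and 16 in RA in the Epcam gate (0.505, 0.197 to 1.21). Of the inflammasome partners, 1 of 8 was at least 1.5-fold higher in the Epcam gate, where 5.74% of all genes were. It was the sensor Nlrp3, at 12.1 CPM in butyrate and 6.64 CPM in RA (1.83, 1.48 to 2.28). The cytokine Il18 had the lowest ratio of the inflammasome partners, at 71.8 CPM in butyrate and 105.9 CPM in RA (0.678, 0.634 to 0.724). The 11 autophagy partners load GBPs and IRGs onto vacuoles through LC3-family conjugation. None was at least 1.5-fold higher in any of the 6 gates, where 4.4% to 10.6% of all genes were. At least 1.5-fold lower were 1 in the Cd79a gate, against 19.8% of all genes, and 2 in the C1q gate, against 12.5%. Nothing is read from these counts. In the Epcam gate the autophagy partners ran from Atg12 (1.16) to Gabarapl1 (0.784).

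The chemokine Cxcl9, a target of interferon-gamma that attracts T cells, was higher in butyrate in the stromal gates. It had 165 CPM in butyrate and 26.9 CPM in RA in the Col1a2 gate (ratio 6.13, 5.21 to 7.22), and 53 UMIs in butyrate and 5 in RA in the Cdh5 gate (16.3, 6.57 to 52.3). The list held 1 other chemokine with values here, Cxcl10, which answers to several interferons. In the Epcam gate Cxcl9 was at 14.4 CPM in butyrate and 2.42 CPM in RA (5.94, 4.36 to 8.25), and Cxcl10 at 31.1 CPM in butyrate and 42.1 CPM in RA (0.738, 0.665 to 0.818). In the Col1a2 gate Cxcl10 was at 366 CPM in butyrate and 181 CPM in RA (2.03, 1.87 to 2.19), and in the Cdh5 gate at 176 CPM in butyrate and 34.0 CPM in RA (5.18, 3.87 to 7.03). Both were higher in butyrate in the C1q gate, Cxcl9 by a ratio of 2.35 (1.54 to 3.67) and Cxcl10 by 1.69 (1.40 to 2.04). In the Cd79a gate the ratios were 1.38 (0.959 to 1.999) for Cxcl9 and 0.660 (0.579 to 0.751) for Cxcl10, and in the Cd3e gate Cxcl10 was at 0.989.

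Across the 6 gates and 2 libraries, 12 points that share library and depth, the profile of the summed GTPase genes was compared with that of 13468 other genes. On the log2(CPM + 10) scale the most alike were Nbdy, Enpp4, Irf1, Gcnt2 and Irf2bpl, with Pearson correlations of 0.976, 0.975, 0.965, 0.964 and 0.949. Each of the 10 genes correlated with the sum of the other 9 between 0.610 (Igtp) and 0.926 (Gbp2). Igtp had its highest RA level in the Cd3e gate. For Gbp2 the order of the highest gates was not resolved, with 101.4 CPM in butyrate (90.8 to 112.9) and 71.0 CPM in RA (65.2 to 77.2) in the Col1a2 gate, and 99.5 CPM in butyrate (82.1 to 119.6) and 65.8 CPM in RA (54.4 to 78.9) in the Cdh5 gate.

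**Figure D5:**
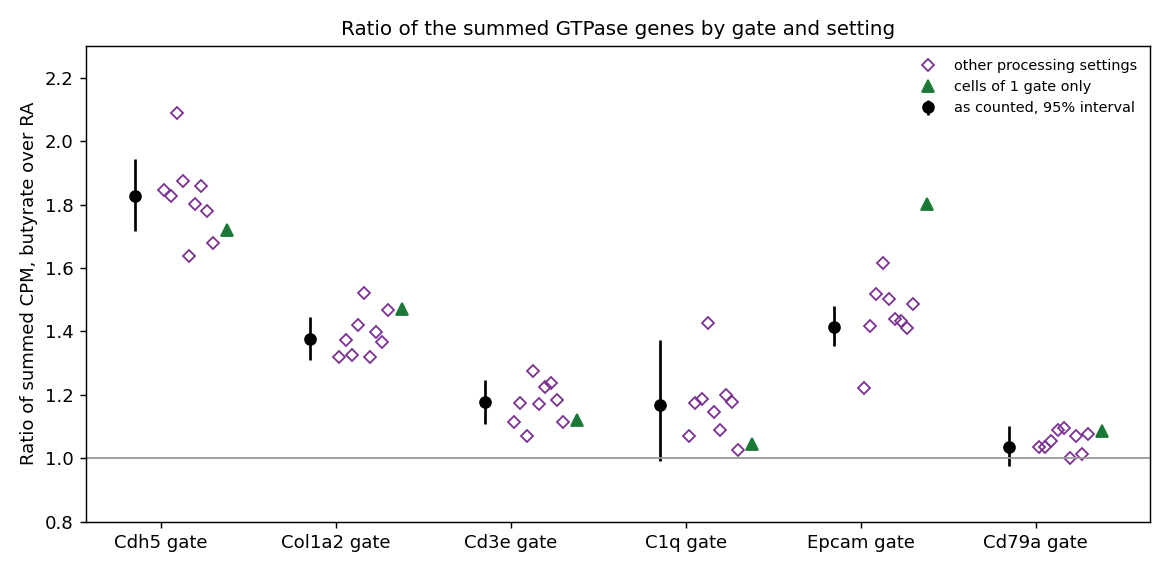
Ratio of the summed GTPase level, butyrate over RA, by gate: as counted with its exact 95% interval (black), in cells of 1 gate only (green triangles) and under the other processing settings (purple diamonds). Every value of the Cdh5 gate lies at or above 1.64, and those of the Cd79a gate lie between 0.999 and 1.09.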

How the data were processed

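The deposited files hold raw UMI counts per gene and barcode, with no normalization. Per the file headers the authors made them with Cell Ranger 7.1.0, while the submitters' processing notes name Cell Ranger 6.0.1, Seurat 4.0.3 and 4.0.4 and the mm10 genome. Whether intronic reads were counted is not given in the sources used here, and UMI counts per cell depend on it. The 2 tables held 67894477 UMIs (butyrate) and 61912439 UMIs (RA).

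Counts were summed over the cells of each gate and library and given as CPM of the gate total, each with its exact Poisson interval. Ratios divide butyrate by RA and carry an exact conditional binomial interval, and shares of cells carry Clopper-Pearson intervals. Genes with at least 20 UMIs over both libraries were read for a 1.5-fold difference. A list's median log2 ratio was taken with 0.5 added to each sum. Cells are not replicates, and no test between the libraries was made. Doublets were kept, since Scrublet's own threshold marked 2 butyrate barcodes and 0 RA barcodes and so did not work. Removing the highest scores, up to 0.8% per 1000 barcodes (6.60% of butyrate and 5.53% of RA cells), is an alternative. So are a 10% mitochondrial limit, the lowest butyrate depth as a minimum, stricter gates, cells of 1 gate only, thinning to 1000 UMIs, a mean over cells, median-ratio scaling and no minimum of UMIs.

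The 10 genes, the gates and the lists were chosen with earlier results of these data known. Named beside the members are the 5 genes with the most alike profile, among genes with at least 200 UMIs, the highest and lowest ratio of each pathway list in the Epcam gate, and Ifng and Irf1 in every gate. Results of 1 further pathway gene and 1 B cell sub-gate are not reported here. Pathway genes named in other gates, Jak2 in the Epcam gate, and values picked out within sub-gates, were chosen after their values were seen. Gene positions are from GENCODE M21 on GRCm38 and promoters from RefSeq on GRCm38.p6. Python 3.11.15, numpy 2.4.6, scipy 1.17.1, pandas 2.3.3 and scanpy 1.11.5 were used, and the scripts were tested on simulated data.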

Additional observations from a re-analysis of the deposited data

Results flagged for a closer look

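Signals appeared in cells that no comparison used. Cells that passed none of the 6 gates, 493 in butyrate and 872 in RA, held 868 UMIs of the 10 genes in butyrate and 714 in RA, which is 314 CPM in butyrate and 202 CPM in RA, a ratio of 1.55 (1.40 to 1.71). Barcodes that passed the minimums of UMIs and genes and were set aside for more than 25% mitochondrial UMIs, 1358 in butyrate and 1808 in RA, held 369.7 CPM in butyrate and 192.8 CPM in RA, a ratio of 1.92 (1.81 to 2.03).

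Gbp2 had ratios on opposite sides of 1 between gates. Its ratio, butyrate over RA, was 1.32 in the Cd3e gate, 1.43 in the Col1a2 gate and 1.51 in the Cdh5 gate, with intervals above 1, and 0.610 in the Cd79a gate, with an interval below 1. In cells of 1 gate only it was 1.67 (Cd3e), 1.69 (Col1a2), 1.19 (Cdh5, 0.822 to 1.70) and 0.391 (Cd79a). After thinning to 1000 UMIs per cell it was 0.917 in the Cdh5 gate and 1.30 in the Cd79a gate. Gbp2 was then found in 9 butyrate and 10 RA cells of the Cdh5 gate, and in 15 butyrate and 6 RA cells of the Cd79a gate. No direction is read from numbers this small. The difference between gates was not tested, since each gate holds 1 library per group. Gbp2 was low in the Cd79a gate, at 3.95 CPM in butyrate and 6.48 CPM in RA. Fibroblast markers in that gate summed to 205 CPM in butyrate and 563 CPM in RA, and T cell markers to 211 CPM in butyrate and 175 CPM in RA. Their part in the Gbp2 ratio was not tested.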

How the results depend on the processing

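With 1 library per group no replicate could be left out, and no paired analysis was possible because the labels give no replicate numbers. The summed ratio, butyrate over RA, stayed above 1 in the Cdh5, Col1a2, Cd3e, C1q and Epcam gates under all 10 alternatives. It ran from 0.999 to 1.09 in the Cd79a gate, where the count of genes past 1.5-fold was 1 throughout. After thinning this gene was not Gbp6, then found in 5 butyrate cells and 1 RA cell. Shares of all genes past the fold were taken only for the gates as counted and for cells of 1 gate. The other counts below have no such share beside them, and nothing is read from them. In the Epcam gate the summed ratio was 1.22 with a 10% mitochondrial limit, 1.80 in cells of 1 gate, 1.49 with both, 1.52 with stricter gates, 1.61 after thinning and 1.503 as a mean over cells, and 3 genes (10% limit) or 9 genes (1 gate) reached 1.5-fold. In the Col1a2 gate it was 1.47 in cells of 1 gate, with or without the 10% limit, and 1.52 as a mean over cells, with 6, 6 and 7 genes past the fold, and 1 after thinning. In the Cd3e gate it was 1.07 with stricter gates and 1.28 after thinning, with 0 and 4 genes past the fold, and 2 in cells of 1 gate (with or without the 10% limit), as a mean over cells or without the 1 cell richest in these UMIs. In the C1q gate it was 1.43 after thinning, when 0 genes kept 20 UMIs, and 2 genes reached the fold in cells of 1 gate, with or without the 10% limit. In the Cdh5 gate it was 2.09 with stricter gates, 1.64 as a mean over cells and 1.68 in cells of 1 gate with the 10% limit, with 6 genes past the fold in cells of 1 gate, with or without that limit, and 4 after thinning, when 7 genes kept 20 UMIs. Of 588 values of single genes under the alternatives, 44 lay on the other side of 1, from 21 of 59 pairs of gene and gate; 37 of them belonged to ratios whose interval held 1. The other 7 were Iigp1 in the Epcam gate with the 10% limit (0.973), Gbp3 in the Cd3e gate with the limit and 1 gate (0.997), and, after thinning, Gbp6 in the Epcam gate (0.983), Gbp2 in the Cd79a gate (1.30), Gbp2 and Irgm2 in the Cdh5 gate (0.917 and 0.998) and Irgm1 in the C1q gate (0 UMIs in butyrate). The cause was not tested. Leaving out the richest cell, and joining 1 gate with the 10% limit, were chosen after seeing the data. Depth limits the C1q gate, with 329 butyrate and 279 RA UMIs of these genes, and Gbp6 in every gate.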
